A study of Homo sapiens with 2 samples.

Results

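MYC, E2F1, E2F2, CDKN3 and RFC3 are genes of cell growth and the cell cycle to which the authors assigned TCF4 binding peaks in a lymphoma cell line. The peaks were chosen by gene name, taking each line of the authors' peak table whose gene name was one of these 5, which gave 11 of 661 distinct peaks and 5 of 275 genes. Earlier results of the same table were known when the genes were picked, so read counts, folds, widths and distances are given as a description, without a test.

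TCF4 (E2-2) was immunoprecipitated from crosslinked chromatin of TMD8, and the recovered DNA was sequenced (ChIP-seq). TMD8 is an established human line that models the activated B cell-like (ABC) form of diffuse large B-cell lymphoma. The labels give TMD8 as lacking a copy number gain of TCF4, and TCF4 was expressed from an added, tetracycline-inducible construct. The series held 1 TCF4 ChIP library and 1 input library, the input being whole cell extract, and both came from cells that had 60 ng/ml doxycycline for 24 hours. Neither group has a second library, and both are induced, so no value has a replicate error and uninduced cells were not analysed here. The table was limited by the authors to peaks related to genes of a TCF4 signature, each marked Up or Down, and a gene it does not name cannot be called unbound. The input is taken to be the table's column headed IC, since only 1 library besides the ChIP was given.

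TCF4 is an E protein, a basic helix-loop-helix factor that binds E-box DNA as a dimer and takes part in B cell development. MYC is a factor of the same structural class that binds E-boxes as a dimer with MAX and raises the expression of growth and metabolism genes. E2F1 and E2F2 switch on genes of DNA replication once the retinoblastoma protein releases them. CDKN3 is a phosphatase that removes an activating phosphate from CDK2, and RFC3 is a subunit of replication factor C, the complex that loads the PCNA clamp onto DNA.

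The peaks are described by position and width, the features by which the genes were set side by side when they were chosen. E2F1 had a promoter peak, with 9.09-fold more ChIP than input reads after library scaling. CDKN3 and RFC3 had only peaks over 50000 bp from the start of the gene, with 3 and 5 peaks and folds of up to 21.9 and 8.15. MYC and E2F2 had 1 narrow peak each, with folds of 3.67 and 2.14. Their input densities were 1.43 and 1.29. The median was 1.29 in the 23 peaks of 200 bp or less and 0.559 over all peaks. A single peak, as at E2F1, MYC and E2F2, was listed for 38.5% of the 275 genes. All 11 peaks belonged to genes marked Up, as did 82.5% of all peaks.

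E2F1 was the only one of the 5 genes with a peak in the authors' promoter class, which held 5.45% of all peaks. The reference sequence before the start of E2F1 is shown with that of E2F2, its paralogue, whose peak lay at the other end of the gene. Both are the 250 bases that precede the RefSeq start (GRCh38.p14, minus strand, E2F1 at chr20:33686386-33686635 and E2F2 at chr1:23531234-23531483). Capitals mark matches to the E-box CANNTG or to GCGCNAAA, searched on both strands. CANNTG leaves its middle letters open. The forms taken for E proteins were CAGCTG and CAGGTG, and the form taken for MYC was CACGTG. GCGCNAAA is a form of the E2F site, and it was the only form searched.
E2F1: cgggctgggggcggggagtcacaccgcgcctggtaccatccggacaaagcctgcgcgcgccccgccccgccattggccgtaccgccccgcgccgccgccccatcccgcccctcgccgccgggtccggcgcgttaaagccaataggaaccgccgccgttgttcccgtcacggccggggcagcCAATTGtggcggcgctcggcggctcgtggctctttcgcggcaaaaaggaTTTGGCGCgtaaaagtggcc
E2F2: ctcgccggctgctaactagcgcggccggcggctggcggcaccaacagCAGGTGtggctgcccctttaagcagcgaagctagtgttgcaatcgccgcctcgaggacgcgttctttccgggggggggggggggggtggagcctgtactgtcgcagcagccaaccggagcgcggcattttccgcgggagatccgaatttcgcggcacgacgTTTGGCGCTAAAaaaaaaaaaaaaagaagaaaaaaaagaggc
The E2F1 stretch held 1 CANNTG match, CAATTG, from base -69 to base -64 before the start, which is not a form taken for E proteins or MYC. It also held 1 GCGCNAAA match, printed as TTTGGCGC, from -20 to -13. The E2F2 stretch held 1 E-box, CAGGTG, from -203 to -198, and 2 GCGCNAAA matches that overlap each other between -42 and -31. Of 35116 RefSeq promoters cut to the same 250 bases, 61.8% held CANNTG, 17.5% CAGGTG, 14% CAGCTG, 6.34% CACGTG and 1.51% GCGCNAAA. The CAGCTG form lay in the RFC3 stretch, and the CDKN3 stretch held only CAACTG, from -237 to -232. Neither held GCGCNAAA, and whether they held other forms of the E2F site was not searched. None of the 4 stretches examined held CACGTG, the form known for MYC. The stretches do not lie under any of the peaks, and the DNA under the peaks was not analysed here.

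The E2F1 peak lay at chromosome 20 from 32272920 to 32273581 (hg19, as are all peak positions below), within the gene and 1019 bp from its transcription start site (TSS). Its near border was about 688.5 bp from the start, reckoned as the deposited distance less 0.5 times the width, and uncertain by up to 59 bp because the authors measured from the centre of another region. It held 243 ChIP reads against 35 input reads. The fold, ChIP reads over input reads multiplied by a scaling of 1.31 for library size, was 9.09, with an exact (Clopper-Pearson) 95% interval of 6.36 to 13.4. This interval and those below cover only the counting error of these 2 libraries, with reads taken as independent molecules, which PCR copies are not.

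ChIP density at E2F1, the authors' normalized reads per length, was 8.44, against an input density of 0.928. The ChIP density was the 21st highest of 661 peaks. Among the 36 promoter peaks, 2 had a higher ChIP density, 3 had more ChIP reads and 9 had a higher fold. Input density was also high, since 90.02% of all peaks had less and 8 of the promoter peaks had more. The peak was 661 bp wide, against a median of 542 bp in the promoter class and 492 bp in all peaks. Of the promoter peaks, 13 were wider. Its apex, the point of highest signal, lay 280 bp from the nearer border. E2F1 therefore had a peak wider than the median, with many reads in both libraries.

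**Figure D1:**
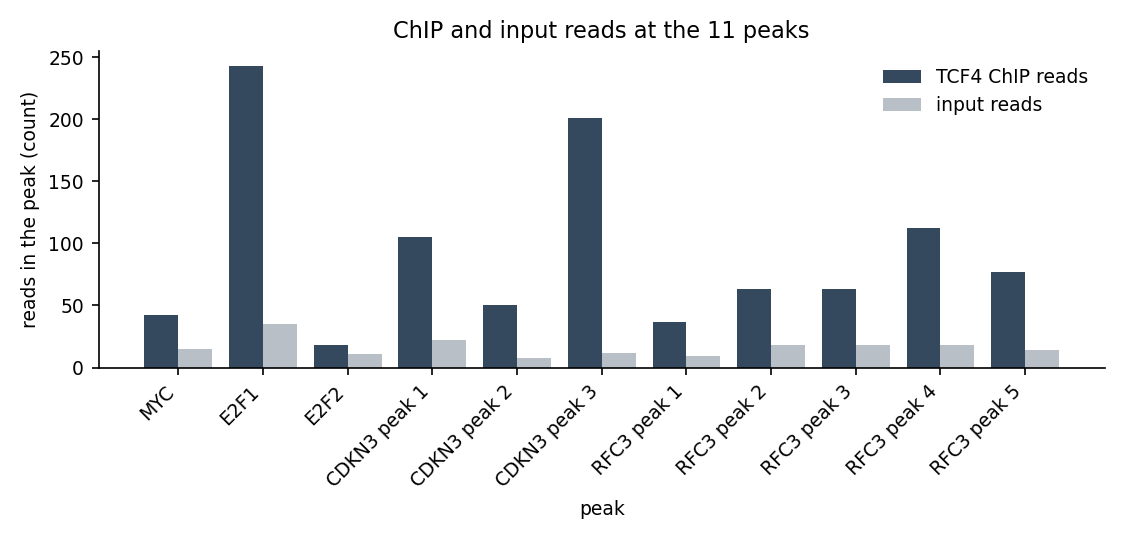
Reads in each of the 11 peaks (vertical axis, counts), with the TCF4 ChIP library as the dark bar and the input library as the light bar of each pair. E2F1 had the most ChIP reads (243) and the most input reads (35), and E2F2 the fewest ChIP reads (18), against 11 input reads.

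CDKN3 had 3 peaks, all upstream of the gene on chromosome 14 and spread over 101.9 kb. The deposited distances of the 3 place the start of the transcript within 252 bp of each other, and the centre of the region from which distances were measured lay up to 217 bp from the centre of the peak. The peak nearest the gene, from 54749389 to 54750501, held 201 ChIP reads against 12 input reads, a fold of 21.9 (12.3 to 43.2). It was 1112 bp wide, wider than 92.1% of all peaks, and lay 113856.5 bp from the TSS.

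The middle CDKN3 peak, from 54733826 to 54734251 and 129511 bp from the TSS, held 50 ChIP reads against 8 input reads, a fold of 8.18 (3.85 to 20.0). The farthest, from 54648558 to 54649126 and 214828 bp away, held 105 ChIP reads against 22 input reads, a fold of 6.25 (3.92 to 10.4). The interval of the nearest peak overlapped that of the middle one and not that of the farthest. With the reads of all 3 added, CDKN3 had 356 ChIP reads against 42 input reads, a fold of 11.1 (8.05 to 15.7).

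The 3 CDKN3 peaks differed less in ChIP density than in fold. ChIP density was 4.15 at the nearest peak, 2.70 at the middle one and 4.24 at the farthest, and input density was 0.189, 0.330 and 0.679 in the same order. The nearest and the farthest peak thus had close to the same ChIP density, and their input densities differed. Only 10 of the 661 peaks had a lower input density than the nearest CDKN3 peak. Set against the median input density of all peaks (0.559) in place of its own, that peak stood at 7.42-fold, the farthest at 7.59-fold and the middle one at 4.83-fold. Division by a common value keeps the order of the ChIP densities, so these folds are not further evidence. The nearest peak, with the highest fold of the 3, held its 12 input reads over 1112 bp.

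RFC3 had 5 peaks on chromosome 13 over 229.02 kb, a number that 31 of 275 genes (11.3%) reached or passed. The peaks are numbered here from the lowest position up, and they lay on both sides of the start of the gene. Peak 1, from 34281531 to 34281901 and 110537.5 bp upstream of the TSS, held 37 ChIP reads against 9 input reads, a fold of 5.38 (2.55 to 12.7). Peak 2, from 34319626 to 34320091 and 72340 bp upstream, held 63 ChIP reads against 18 input reads, a fold of 4.58 (2.68 to 8.23). These are the 2 peaks on the upstream side.

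On the other side, peak 3, from 34444276 to 34444865 and 52304.5 bp past the start, held the same reads as peak 2, 63 in the ChIP against 18 in the input. Peak 4, from 34490101 to 34490894 and 98378 bp past the start, held 112 ChIP reads against 18 input reads, a fold of 8.15 (4.93 to 14.2). Peak 5, from 34510026 to 34510551 and 118066 bp past the start, held 77 ChIP reads against 14 input reads, a fold of 7.20 (4.04 to 13.8). All 5 intervals overlapped. Added together, the peaks held 352 ChIP reads against 77 input reads, a fold of 5.99 (4.67 to 7.76).

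The RFC3 peaks were alike in density, with ChIP densities of 2.30 to 3.37 and input densities of 0.398 to 0.679. Median densities over all peaks were 3.25 in the ChIP and 0.559 in the input. Peak 4 carried the highest local score of the 11, a −log10 p-value of 8.44 in the authors' deposited table, and ranked 9th of 661 by it, and 204th by fold.

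Whether peaks 3 to 5 are inside RFC3 depends on the transcript. The authors measured the upstream peaks from transcript NM_002915, which the deposited distances give a length of 19439 bp. They measured peaks 3 to 5, classed as within the gene, from NM_181558, with an implied length of 148490 bp. The implied starts of both transcripts differed by 23.3 bp. Against the shorter transcript, peaks 3, 4 and 5 would lie 32.6, 78.4 and 98.4 kb beyond its end.

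**Figure D2:**
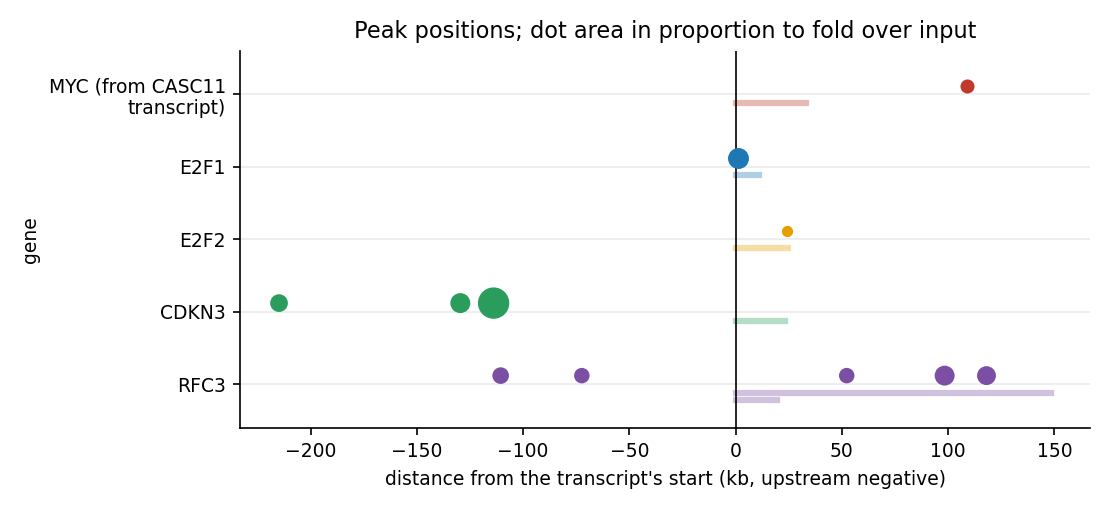
Distance of each peak from the start of the authors' transcript (horizontal axis, kb, upstream negative) for each gene, with dot area in proportion to the fold of ChIP over input and bars showing the implied transcripts. The 3 CDKN3 peaks lie on the upstream side, the RFC3 peaks lie on both sides with 3 inside the longer transcript only, and the E2F1 peak lies beside the start.

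CDKN3, RFC3 and MYC had no peak listed within 50000 bp of the TSS from which the authors measured, which for MYC is that of the CASC11 transcript described below. Their 9 peaks were beyond that distance, where 41.4% of the 654 peaks with a TSS distance lay. Counted by gene, 47 of 273 genes (17.2%), MYC by the CASC11 distance among them, had their nearest peak that far away. The nearest listed peak of any other gene lay 819 kb from the E2F1 peak and more than that from the other 10, so none of the 11 sat among peaks assigned to another signature gene. In the authors' position classes 5 of the 11 peaks were upstream, 5 within and 1 downstream, against 23.4%, 52% and 24.5% of all peaks.

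The MYC peak, at chromosome 8 from 128637428 to 128637612, held 42 ChIP reads against 15 input reads, a fold of 3.67 (1.99 to 7.12). The authors named it MYC but measured it from NR_117102, which RefSeq gives as a transcript of CASC11, a noncoding RNA gene. The peak was downstream of that transcript, 108686 bp from its start and 75325 bp from its end, and its distance from the MYC start itself is not given in the table. Only 20 peaks were narrower than its 184 bp. Its apex was 11 bp from the border, and 9 of 661 peaks had an apex nearer to a border. This distance is limited by width. In peaks of 200 bp or less its median was 32 bp and its lower quartile 15 bp, against a median of 209 bp over all peaks.

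At MYC both densities were above the medians of all peaks, and the fold is by definition the ratio of the 2 densities. ChIP density was 5.24 and input density 1.43. By read count the peak ranked 538th of 661 in the ChIP and 370th in the input. Of all peaks, 17.1% had a higher ChIP density, but only 1.97% had a higher input density. Among the 23 peaks of 200 bp or less, 7 had a higher ChIP density, 10 a higher input density and 9 a higher fold. Against the median input density of all peaks, MYC would stand at 9.37-fold, beyond its own interval. Input density was also high in the narrow peaks, with a median of 1.29 in those 23 against 0.559 over all peaks. Their median ChIP density was 3.52 against 3.25, and their median fold 3.20 against 6.36. The part of peak width in the MYC fold was not tested.

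The E2F2 peak, at chromosome 1 from 23833226 to 23833376, held 18 ChIP reads against 11 input reads, a fold of 2.14 (0.958 to 5.02). It was the lowest fold of the table and the only one of 661 whose interval included 1. Enrichment over the input was thus not detectable by its counting interval, while the authors' deposited local −log10 p-value for this peak was 2.71. The peak lay within the gene, 24385 bp from the TSS and 408 bp from its other end. At 150 bp it had the smallest width in the table, shared by 10 peaks in all.

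ChIP density at E2F2 was 2.76 and input density 1.29. The ChIP density was below the median of all peaks (3.25), unlike that of MYC, while 97.4% of peaks had a lower input density. Among the 23 narrow peaks, 17 had a higher ChIP density and 11 a higher input density. Against the median input density E2F2 would stand at 4.93-fold, inside its own interval. The narrow peaks of MYC and E2F2 thus shared a high input density and differed in ChIP density.

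**Figure D3:**
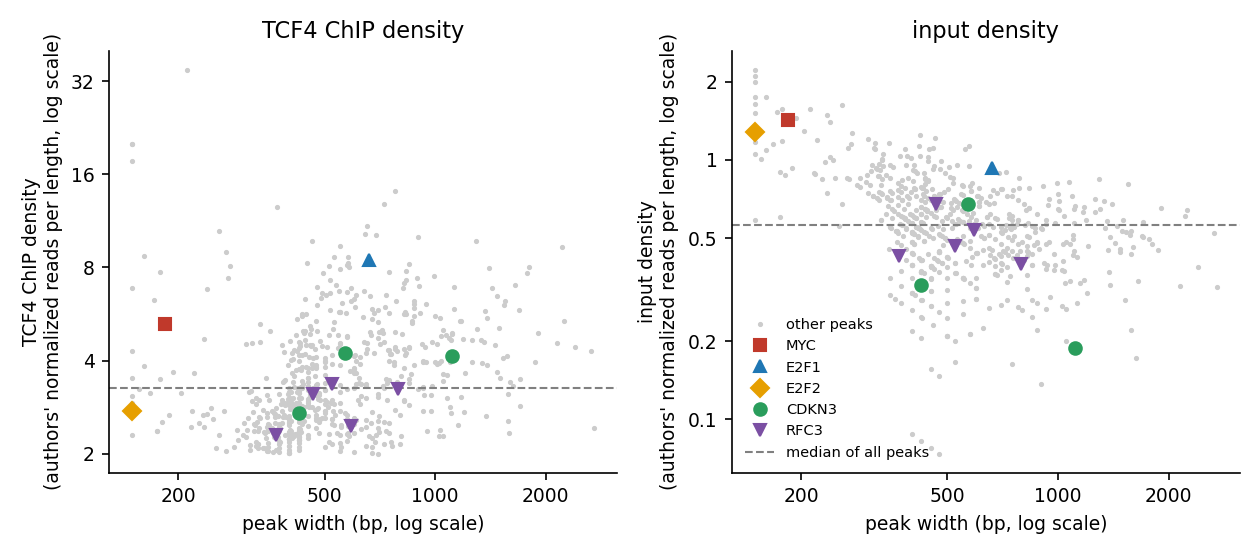
ChIP density (left) and input density (right), both the authors' normalized reads per length on log axes, against peak width in bp for all 661 peaks, with the 5 genes in colour and dashed lines at the medians of 3.25 and 0.559. MYC and E2F2 lie at the narrow end with input densities of 1.43 and 1.29, MYC lies above the ChIP median and E2F2 below it, and the widest CDKN3 peak has an input density of 0.189.

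Side by side, the promoter peak, the distal peaks and the narrow peaks were ordered differently by fold and by ChIP density. By fold the order began with the nearest CDKN3 peak (21.9), then E2F1 (9.09), and ended with MYC (3.67) and E2F2 (2.14). By ChIP density it began with E2F1 (8.44), then MYC (5.24), and ended with RFC3 peak 1 (2.30). MYC was thus 10th of the 11 by fold and 2nd by ChIP density. Of the 55 pairs among the 11 peaks, 49 had overlapping fold intervals. The nearest CDKN3 peak took part in 5 of the other 6 pairs, and its interval overlapped those of E2F1, the middle CDKN3 peak and RFC3 peaks 1, 4 and 5. The sixth pair was E2F1 and E2F2. Overlap of 2 intervals is no test of a difference. The fold at E2F1 was 2.48 times that at MYC, a description only, since the genes were picked with earlier results known. Against the median input density of all peaks, E2F1 stood at 15.1-fold and MYC at 9.37-fold, by construction in the order of their ChIP densities.

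**Figure D4:**
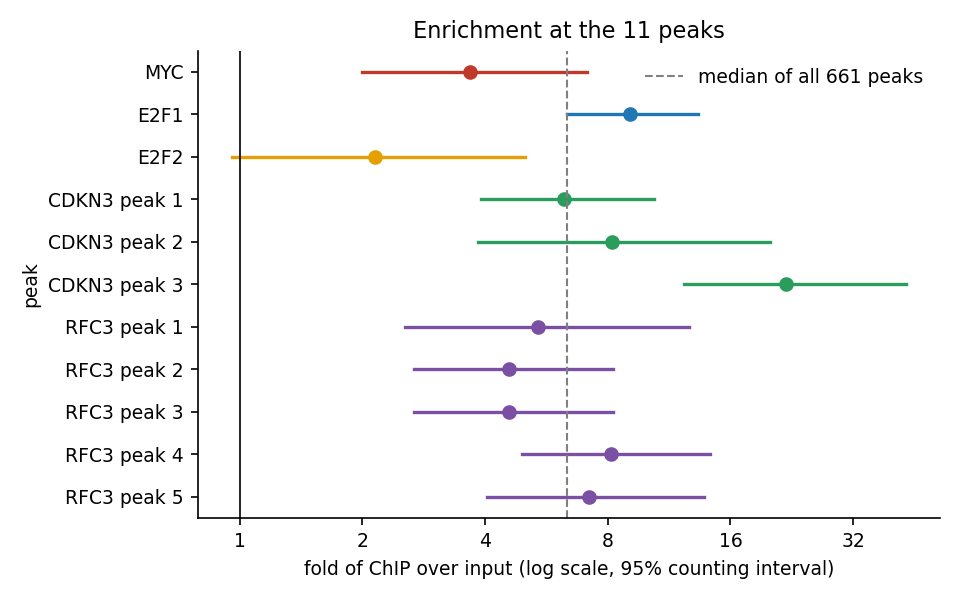
Fold of ChIP over input at the 11 peaks on a log axis, with exact 95% intervals of counting error and a dashed line at the median of all 661 peaks (6.36). The interval of E2F2 reaches below 1, and that of the nearest CDKN3 peak (peak 3) starts at 12.3, above the median.

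As a set the 11 peaks were near the whole table in fold and lay farther from the start of their transcripts. Median distance to the TSS was 108686 bp, against 39291 bp over all peaks. That median is the distance of the MYC peak from the CASC11 start. CDKN3 gave 3 of the 11 peaks and RFC3 gave 5, and position and width were among the features by which the genes were set side by side. The median fold was 6.25, from 2.14 to 21.9, against a median of 6.36 over all peaks. The fold interval lay above 2 in 9 of the 11 peaks, against 85.5% of all peaks, and above 1 in 10, against 99.8%. The exceptions at 2 were MYC, with a lower bound of 1.99, and E2F2. A score, the authors' normalized log2 ratio, at or above the median of the table was reached by 5 of the 11, against 50.1% of all peaks. The median of the authors' local −log10 p-value was 5.37, against 4.02 over all peaks. Median width was 525 bp against 492 bp, with 2 of the 11 peaks at 200 bp or less, against 3.48% of all peaks. In ChIP density, 5 of the 11 exceeded the median of all peaks. The peaks held 1011 of the 71988 ChIP reads and 180 of the 12661 input reads counted in the table. Like 100% of the table, the 11 overlapped a region of another set, unnamed in the header, with centres within 100 bp in 10 of them, against 80.8% of all peaks.

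Of 116 genes in 7 lists of the MYC network, the cell cycle and DNA replication, the table named 7 (6.03%), against 1.31% of 20056 RefSeq protein-coding genes matched by current symbol. All 7 were marked Up, as were 83.3% of the genes in the table. The lists count 1 of 13 for the MYC network, 2 of 14 for the E2F and retinoblastoma family, 1 of 18 for cyclins and CDKs, 1 of 13 for CDK inhibitors and phosphatases and 2 of 9 for clamp loaders. No gene was named among 33 of replication origins and polymerases or 16 of mitosis. The counts describe signature genes with a peak, since the table was limited to these. Because 5 of the 7 are the genes described above, which were chosen from this table, the share named is not independent evidence.

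The 2 further genes were RFC4 and CKS1B, each with 1 peak. RFC4 encodes another subunit of the same clamp loader as RFC3. Its peak, on chromosome 3 from 186512776 to 186513276 and within the gene, 11288 bp from the TSS, held 70 ChIP reads against 12 input reads, a fold of 7.64 (4.11 to 15.5). Its ChIP density of 3.21 fell inside the range of the RFC3 peaks. CKS1B encodes a small protein that binds cyclin-dependent kinases. Its peak, on chromosome 1 from 154952126 to 154952559, was downstream of the gene, 588.5 bp from its end, and held 72 ChIP reads against 18 input reads, a fold of 5.24 (3.09 to 9.33). Both folds were within the range of the RFC3 peaks, 4.58 to 8.15.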

How the data were processed

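TCF4 ChIP and input reads were counted by the authors in each peak, and the deposited counts are whole numbers. BWA, GATK and hg19 are named in the submitters' processing notes, without version or role. The sources used here name neither the peak caller nor whether the foreign chromatin added for normalization, per the labels' protocols, entered the scaling. Recomputing the authors' deposited log2 ratio from the reads, each with 1 added, matched 661 of 661 peaks (tolerance 1e-06). Their normalized log2 ratio, called the score, added 0.39, a 1.31-fold library scaling. The deposited signal, a read density, equalled reads per length times 1 constant per library. If its unit is reads per kilobase and per M (1000000) reads, the ChIP library would hold 43.6 M reads and the input 57.0 M, totals that were not checked. The −log10 p-values, per the file headers, are the authors' own.

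Of 662 lines, 661 were distinct intervals. Width is end minus start. Folds and exact 95% intervals used no pseudocount (Python 3.11.15, SciPy 1.17.1) and were tested on simulated data. All peaks of the 5 genes are named, and other genes only where a pathway list and the table share them. Members and lists were chosen with earlier results of these data known. With 1 library per group there is no test. Alternatives changed library scaling, pseudocount, input, confidence level, score limit and distance windows. RefSeq promoters matched 4 of 5 genes by symbol. No genome of the hg19 build was used.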

Additional observations from a re-analysis of the deposited data

How the results depend on the processing

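All 11 folds stayed within their own 95% intervals without library scaling and with 1 read added to each library. With the median input density of all peaks in place of the peak's own, 8 stayed and 3 left them, namely MYC at 9.37, E2F1 at 15.1 and the nearest CDKN3 peak at 7.42. The median fold of the 11 peaks was 6.25. It was 4.77 without scaling, 6.04 with 1 read added and 5.80 with the median input density. Among only the 5 peaks at or above the median score the median fold was 8.18. That rise is by construction, since the score is the log2 of the scaled ratio. The interval lay above 2 in 9 peaks, in 8 without scaling, in 9 at the 99% level and in 5 when only peaks at or above the median score were kept, by construction. The promoter count was 0 within 1000 bp of the TSS, because E2F1 lies 1019 bp away, and 1 within 5000 and 10000 bp. Partner centres within 50 bp were found for 6 peaks in place of 10, and within 200 bp for 10. Listed pathway genes named by the table were 4 in place of 7 with peaks at or above the median score, and also 4 with peaks within 50000 bp of the TSS, since fewer peaks were kept. No paired analysis was possible because neither group holds more than 1 library. Depth limits E2F2 (18 and 11 reads) and the CDKN3 and RFC3 peaks with under 10 input reads.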
